A study of Mus musculus with 6 samples.

Results

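Binding of the transcription factor MafA was examined at 9 channel genes that couple glucose to calcium entry in pancreatic beta cells, out of 21883 protein-coding genes in the GRCm38.p6 RefSeq table. The genes were the KATP channel genes Kcnj11 and Abcc8, the calcium channel genes Cacna1a, Cacna1c, Cacna1d, Cacnb2 and Cacna2d1, and the TRPM channel genes Trpm4 and Trpm5. They were chosen by function and position, and every peak in a gene or within 10 kb of it was taken. The data were CUT&RUN profiles of MIN6, a mouse insulinoma line with beta cell properties, in which an antibody directs a nuclease to its target in permeabilised cells and the released DNA is sequenced. The 6 libraries formed 3 groups of 2 replicates, all from 500000 MIN6 cells permeabilised in 0.01% digitonin: MafA itself, the histone modification H3K4me3 (the positive control) and a nonspecific IgG (the negative control). No genotype or other treatment is named in the labels, and nothing in them says that replicates came from separate cultures, so the spread given here may be technical. The 4 MafA and H3K4me3 peak lists were analysed, and IgG was not analysed here.

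When a beta cell burns more glucose, ATP closes its KATP channels, the membrane depolarises, and voltage-gated calcium channels open. The calcium that enters triggers the release of insulin granules. TRPM4 and TRPM5 are cation channels opened by intracellular calcium that add to the depolarisation. MafA is a beta cell transcription factor that binds MAF recognition elements and activates the insulin genes, and H3K4me3 marks the starts of genes in use.

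The lists held 33013 and 42747 MafA peaks and 16020 and 16904 H3K4me3 peaks in replicates 1 and 2. A region is the union of overlapping peaks found in both replicates of a target. Its strength is the fold enrichment at the summit, the authors' own value, which divides the fragments there by a modelled background. Fragments could be recovered from the deposited values, with a median of 25 and 46 per summit in MafA replicates 1 and 2. Of 8 beta cell genes, 7 had an H3K4me3 region at a start, among them Ins2, Pdx1 and Slc2a2, and Ins1 did not. Of 6 genes of other islet cells, 1 was marked, the glucagon gene Gcg. Over all protein-coding genes the share was 57.0%. These marker genes were chosen with earlier results known, so the counts are not an independent check of the cell type.

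All 9 channel genes carried a MafA region found in both replicates, against 44.0% of protein-coding genes. The count fell to 7, without Kcnj11 and Trpm4, when a reciprocal overlap of 50% was required or when the 16020 strongest peaks of each list were used. The share of all genes under these stricter rules is not given, so the 7 cannot be set against the 44.0%. Gene length matters for this number, since a region was found at 88.7% of genes of at least 300 kb, 53.1% of those of 20 to 100 kb and 31.1% of those under 20 kb. Of the 9 genes, 5 are in the longest class, 3 in the middle one and Kcnj11 in the shortest. Together they held 64 distinct MafA regions, of which 59 had both summits inside a gene and 5 lay outside. Most of the length searched was gene body, so this split does not show a preference for gene bodies. The median fold enrichment was 5.94, beside 5.75 over all 25894 MafA regions, so these regions were of ordinary strength as a group. Single regions stood far above it: 11 were at or above the 90th percentile of all MafA regions (a fold enrichment of 11.9), and they belonged to Abcc8, Cacna1c, Cacna1d and Trpm5. Such a region was found at 6.79% of protein-coding genes of all lengths, a share that was not split by length. Longer genes held more regions of any strength, with a median of 5 at genes of at least 300 kb and 0 at those under 20 kb.

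**Figure D1:**
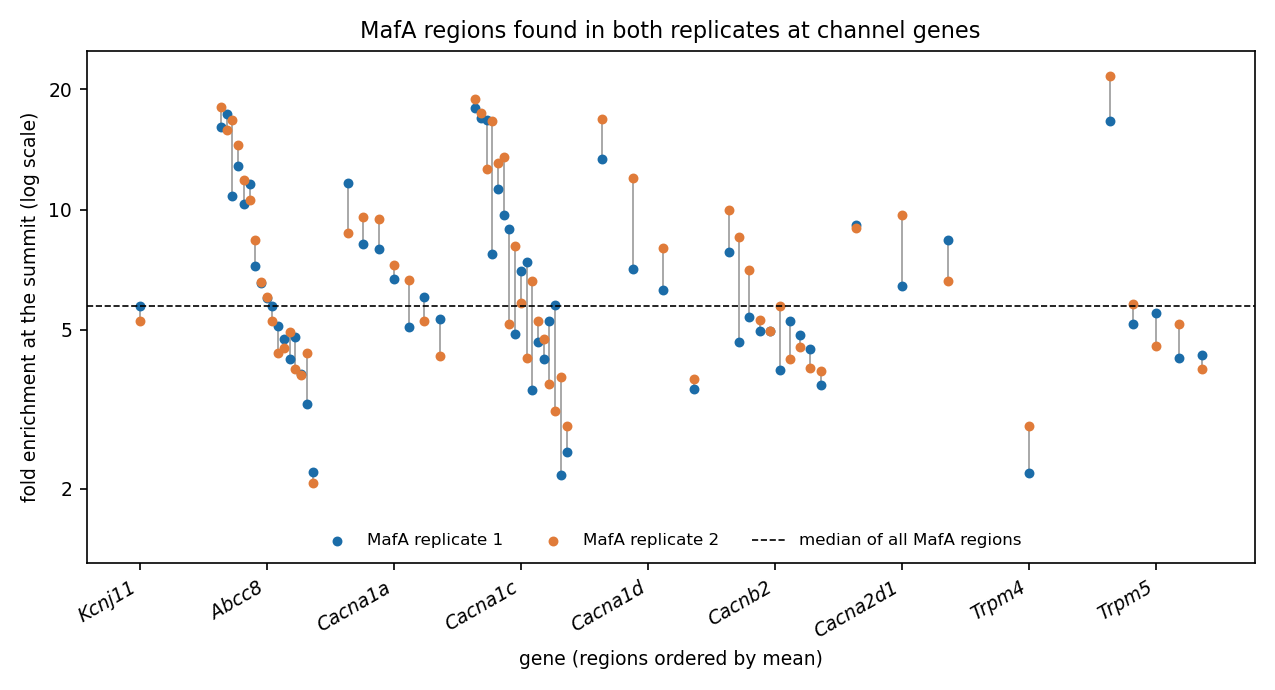
Fold enrichment (log axis) of every MafA region found in both replicates, by channel gene, with 1 point for each replicate joined by a line. Abcc8 and Cacna1c hold 17 regions each, from near 2 to above 15, while the only regions of Kcnj11 and Trpm4 have means (5.50 and 2.53) below the dashed median of all MafA regions (5.75).

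The starts of the genes were compared first, because H3K4me3 shows which of them was marked in these cells. The RefSeq promoter table (GRCm38.p6) holds 9 annotated starts for 5 of the genes, and for Kcnj11, Abcc8, Cacna1a and Trpm4 either end of the gene was used. An H3K4me3 region lay within 1 kb of a start at 8 of the 9 genes, against 57.0% of protein-coding genes, and Trpm5 was the exception. Cacna1a counts only through its high-coordinate end, by a region 103 bp from an end of the noncoding gene Gm39212. That mark may therefore not be at a start of Cacna1a. A MafA region lay within 1 kb of a start at 3 of the 9 genes, Kcnj11, Cacna1c and Trpm4, against 19.9%. Either end was used for 4 of the 9 genes, whereas 17491 of the 21883 protein-coding genes had annotated starts. The counts for the 9 and the shares of all genes are therefore not strictly alike. Kcnj11 counts through its low-coordinate end, whereas both H3K4me3 summits lay nearer its other end, 4.48 kb from the MafA region. With either end used for every gene, the H3K4me3 count was 7, since Cacna1c and Cacna1d carry the mark at an internal start and not at an end, while Trpm5 then counts through its low-coordinate end, close to its neighbour Tssc4.

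The sequences below are the 250 bases before annotated starts, 5′ to 3′ on the strand of the gene, with CG dinucleotides in capitals. Shown are Cacna1c and Cacna1d, whose marked starts had the most CG dinucleotides of the 9, each beside the unmarked start nearest the end of the gene, and Trpm5, whose single start was unmarked. The third start of Cacna1c and the starts of Cacnb2 and Cacna2d1 are given by their counts only. All 5 are on the minus strand.
Cacna1c, unmarked start, chr6:119196410-119196659: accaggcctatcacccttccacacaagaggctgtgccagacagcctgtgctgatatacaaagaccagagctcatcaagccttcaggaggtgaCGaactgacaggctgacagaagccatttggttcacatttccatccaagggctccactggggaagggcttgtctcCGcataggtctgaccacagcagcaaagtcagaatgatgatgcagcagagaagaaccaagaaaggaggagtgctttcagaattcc
Cacna1c, marked start, chr6:119108496-119108745: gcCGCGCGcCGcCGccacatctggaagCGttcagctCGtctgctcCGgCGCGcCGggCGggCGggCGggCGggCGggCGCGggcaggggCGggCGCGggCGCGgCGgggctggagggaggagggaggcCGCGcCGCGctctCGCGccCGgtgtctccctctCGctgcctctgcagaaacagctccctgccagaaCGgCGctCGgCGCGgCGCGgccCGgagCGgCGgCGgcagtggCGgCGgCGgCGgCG
Cacna1d, unmarked start, chr14:30491157-30491406: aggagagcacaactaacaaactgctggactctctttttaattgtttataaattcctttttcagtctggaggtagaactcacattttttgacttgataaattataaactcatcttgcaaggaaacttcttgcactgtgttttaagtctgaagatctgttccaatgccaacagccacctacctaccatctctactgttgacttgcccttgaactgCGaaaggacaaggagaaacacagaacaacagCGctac
Cacna1d, marked start, chr14:30353487-30353736: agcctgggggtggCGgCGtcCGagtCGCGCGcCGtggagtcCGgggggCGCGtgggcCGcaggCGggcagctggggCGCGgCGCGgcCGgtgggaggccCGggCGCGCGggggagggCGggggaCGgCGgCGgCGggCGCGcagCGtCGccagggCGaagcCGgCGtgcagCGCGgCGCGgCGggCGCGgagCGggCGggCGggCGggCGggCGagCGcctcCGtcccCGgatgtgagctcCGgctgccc
Trpm5, unmarked start, chr7:143094643-143094892: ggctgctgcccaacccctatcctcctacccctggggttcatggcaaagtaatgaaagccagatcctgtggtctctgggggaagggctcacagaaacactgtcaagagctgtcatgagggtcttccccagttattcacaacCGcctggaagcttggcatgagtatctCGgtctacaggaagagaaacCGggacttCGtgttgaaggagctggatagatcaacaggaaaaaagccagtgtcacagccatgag

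The 4 marked starts of the 9 held 30 to 50 CG dinucleotides in these 250 bases, and the 5 unmarked ones held 2 to 5. At Cacna1c the counts were 48 at the marked start and 2 and 5 at the unmarked ones, and at Cacna1d they were 50 and 2. Cacnb2 had 30 at its marked start and 3 at the other, Cacna2d1 had 36 at its marked start, and Trpm5 had 4. Over 21262 starts of protein-coding genes the median was 17 where H3K4me3 was found and 3 where it was not. None of the 9 windows held TGCTGAC, the core of a MAF recognition element, on either strand, and 3.54% of all such windows did. The full palindromic elements of 13 and 14 bases, each of which can contain that core, were in 0 of the 9 windows and in 0 and 1 of all 21262. Sequence under the other MafA regions was not analysed here, so this says nothing about sites in the gene bodies.

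The KATP channel is built of the pore subunit Kir6.2, encoded by Kcnj11, and the sulfonylurea receptor SUR1, encoded by Abcc8, and the genes lie side by side on chromosome 7. Abcc8 (46104523 to 46180039) carried 17 MafA regions, or 17.8 per 100 kb of the gene and its flanks, and 15 of them were inside the gene. Among 7610 protein-coding genes of 20 to 100 kb it was the only one with as many (0.0131%), the next highest number was 12, and the median was 1. In MafA replicate 1 alone, 2 genes of that class had as many peaks as Abcc8, itself included. The regions were 1.78 to 19.4 kb apart by the middle of their summits and covered 26.0% of the window.

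The strongest Abcc8 region, at 46155215 to 46156623, had a fold enrichment of 16.1 in replicate 1 and 18.1 in replicate 2 (17.1 ± 1.37, mean ± SD, n = 2). Its summits held 71 fragments (95% exact Poisson interval 55.5 to 89.6, counting error only) and 149 (126 to 175). The region at 46122363 to 46124584 had 17.4 and 15.8 (16.6 ± 1.15), with 163 and 337 fragments, more than any other in the gene. At 46162123 to 46164961 the values were 12.9 and 14.5, and at 46145490 to 46147302 they were 10.8 and 16.8, the widest gap between replicates in this gene. These 4 regions were at or above the 90th percentile in their mean. A further 2, at 46127786 to 46129384 and 46130631 to 46132942, had means of 11.1 each and were near the 88th. The other 11 regions had means from 2.14 to 7.81. The lowest of them, at 46187804 to 46188310 (2.21 and 2.06), lay outside the gene and nearest to Ush1c, and 65 fragments in replicate 2 stood there over a background of 23.0.

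The marked ends of the KATP genes were not where MafA was strong. H3K4me3 covered one end of Abcc8 at 46176534 to 46180473, with fold enrichment of 19.2 and 18.7. No MafA region found in both replicates lay there, and a peak with a fold enrichment of 1.75 was listed in MafA replicate 2 only. None of the 15 MafA regions inside Abcc8 overlapped an H3K4me3 region. An H3K4me3 region of 4716 bp (18.9 and 23.4) contained the whole of Kcnj11 (46097123 to 46100952). This region joined 1 peak of H3K4me3 replicate 1 with 2 of replicate 2. Of these 2, the peak with 23.4 began just inside the gene, and the one overlapping MafA had only 6.75. The edge of the H3K4me3 region overlapped the only MafA region of Kcnj11, at 46096066 to 46096694, which lay outside the gene. That MafA region had a fold enrichment of 5.75 and 5.25 (5.50 ± 0.351, n = 2), with 33 and 62 fragments and summits 2 bp apart. It was lost among the 16020 strongest peaks of each list, with 50% reciprocal overlap and when only the gene body was searched. That region lies within 10 kb of Abcc8 as well and is counted for both genes. Within 50 kb of Kcnj11 lay 11 MafA regions, since that window reaches into Abcc8.

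**Figure D2:**
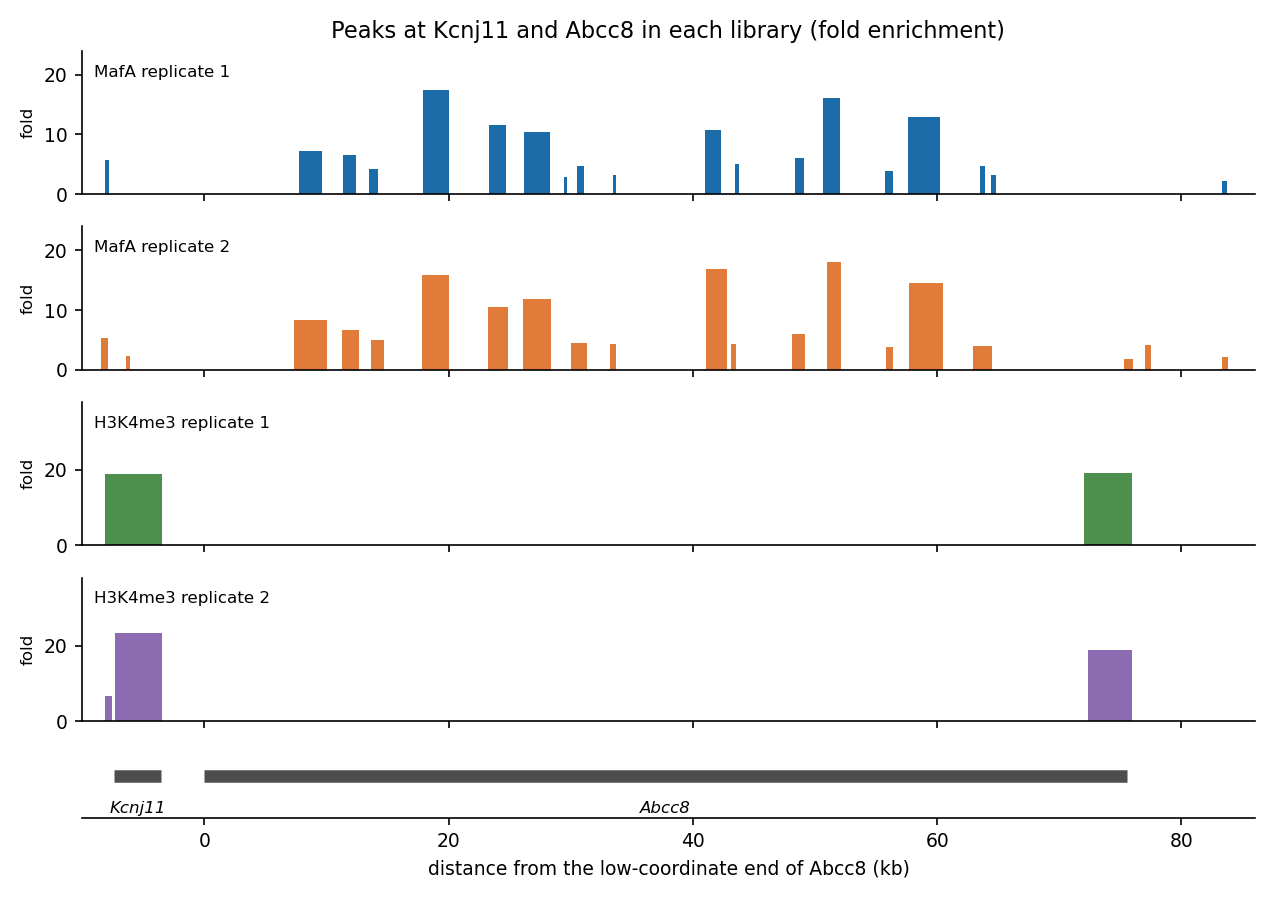
Peaks of each library at Kcnj11 and Abcc8: horizontal axis, distance from the low-coordinate end of Abcc8 in kb; bar height, fold enrichment; bar width, peak width, with a minimum width for narrow peaks. The MafA bars are spread along the body of Abcc8 in both replicates, with few or none near its ends. The H3K4me3 bars sit over Kcnj11 and over the far end of Abcc8.

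Cacna1c encodes Cav1.2, the pore of an L-type calcium channel, and spans 610 kb on chromosome 6 (118587240 to 119197384). It carried 17 MafA regions, all inside the gene, and 8.63% of genes of at least 300 kb had as many. The strongest lay at 119058124 to 119060004, with 18.0 and 18.9 (18.4 ± 0.675, n = 2) and with 206 and 404 fragments, the most of the 64 regions in either replicate. Next came 119084963 to 119086169 with 17.0 and 17.4, where the replicates nearly coincided. The region at 119078212 to 119083146 had 16.8 and 12.7, but its summits were 2861 bp apart, so that mean joins different positions. These 3 regions lay 22.8 to 49.6 kb from the marked start. They are among 5 of the gene at or above the 90th percentile, and the rest of the 5 lay farther from that start.

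The marked start of Cacna1c had the strongest H3K4me3 of all 9 genes, at 119105948 to 119109401, with fold enrichment of 34.4 and 30.6 (98.2nd percentile of H3K4me3 regions). MafA over it, at 119108276 to 119109354, was weak, with 2.47 and 2.88 and with 43 and 93 fragments over a background of 16.8 and 23.5. Of the other Cacna1c regions, the one at 118977338 to 118978294 differed most between replicates of all 64, with 7.76 and 16.6, and the one at 118706626 to 118708109 had 11.3 and 13.1. At 118989847 to 118990911, MafA (9.70 and 13.5) overlapped a weak H3K4me3 region (3.87 and 4.44) far from any listed start. Another H3K4me3 region inside Cacna1c, at 119174888 to 119176490, lay 233 bp from an end of Dcp1b, a gene that overlaps it. The remaining 10 regions had means from 2.99 to 7.05, and neighbouring regions of the gene were 4.76 to 83.3 kb apart.

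Cacna1d encodes Cav1.3, the other L-type pore of beta cells, and spans 451 kb on chromosome 14 (30039941 to 30491156). It carried 4 MafA regions, or 0.849 per 100 kb, near the median of 0.986 for genes of at least 300 kb. MafA replicate 1 alone listed 7 peaks there, 3 of them with no partner in replicate 2. The strongest, at 30470265 to 30471849, had 13.4 and 16.9 (15.1 ± 2.43, n = 2), with 38 and 86 fragments over a low background of 1.91 and 2.87. It lay 20.3 kb inside the gene from the unmarked start, and 7.56 kb from a second region at 30463069 to 30463992 (6.31 and 8.01). The region at 30196152 to 30197787 had 7.10 and 12.0, and the last, at 30056064 to 30056584, had 3.55 and 3.76. At the marked start H3K4me3 was 12.7 and 15.1, and the nearest summit of a MafA region was 110 kb away. A second H3K4me3 region, at 30479094 to 30480850, lay 277 bp from an end of the overlapping gene Dcp1a. There MafA replicate 2 alone listed a peak with a fold enrichment of 5.08 and 196 fragments, while MafA replicate 1 had none.

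Cacna1a encodes the pore of the P/Q-type channel Cav2.1 and spans 302 kb on chromosome 8 (84338631 to 84640251). Its 7 MafA regions had means from 4.81 to 10.2, none at or above the 90th percentile, and 6 were inside the gene. The highest, at 84345827 to 84347163, had 11.6 and 8.76 (10.2 ± 2.04, n = 2), and one just outside the gene, at 84334312 to 84335590, had 8.18 and 9.61. By fragments the order differed: 84414502 to 84415129 held 168 in replicate 2, the most of the gene in that replicate, with a fold enrichment of only 6.04 and 5.27. That region overlapped an H3K4me3 region inside the gene (7.51 and 8.40), where the background of 10.7 and 23.0 was also the highest of the 7. The H3K4me3 region at one end of Cacna1a (16.8 and 14.7) lay 103 bp from an end of the noncoding gene Gm39212. No MafA region was within 100 kb of that end, the nearest being 139 kb from it, and 5 of the 7 MafA regions lay within 100 kb of the other end.

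Cacnb2 encodes an auxiliary beta subunit that brings the pore to the membrane, and spans 385 kb on chromosome 2 (14603861 to 14988811). It carried 10 MafA regions, with a median of 4.91, below that of all MafA regions. Of these, 6 lay within 100 kb of the low-coordinate end, 4.71 to 73.0 kb from it, and the strongest lay far inside the gene. The highest, at 14917528 to 14918412, had 7.85 and 10.0 (8.93 ± 1.52, n = 2), and 9 of the 10 did not overlap H3K4me3. The exception, at 14608330 to 14609316 (5.25 and 4.22), lay 4.27 kb from the marked start and over a weak H3K4me3 region (3.77 and 4.30). At the marked start itself (H3K4me3 23.3 and 21.3, 78.5 bp from an end of Gm32741), MafA was listed in replicate 2 only, with 2.46 and 124 fragments.

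Cacna2d1 encodes the alpha-2/delta-1 auxiliary subunit and spans 440 kb on chromosome 5 (15934264 to 16374511). It carried 3 MafA regions, or 0.652 per 100 kb, the sparsest of the 9, and 69.8% of genes of at least 300 kb had at least as many. They lay at 16002256 to 16003193 (8.40 and 6.62), 16166117 to 16167424 (9.17 and 8.99, or 9.08 ± 0.128, n = 2) and 16184317 to 16185829 (6.43 and 9.69). All were above the median of MafA regions and 67.9 to 250 kb from the marked start, where H3K4me3 was 16.5 and 17.7. Peaks listed in a single replicate outnumbered them, with 4 in replicate 1 and 7 in replicate 2. Of the 7, the pair nearest the marked start had fold enrichments of 1.94 and 2.22.

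The TRPM genes, both on chromosome 7, lay at opposite ends of the order. Trpm5 (143071529 to 143094642) carried 5 MafA regions, or 11.6 per 100 kb, and 2.64% of genes of 20 to 100 kb had as many. For Trpm5 the number fell to 3 in the gene body alone and to 2 among the 16020 strongest peaks of each list. Its strongest, at 143075618 to 143078496, had the highest mean of all 64, with 16.7 and 21.6 (19.1 ± 3.50, n = 2) and with 156 and 346 fragments. In replicate 1 alone, regions of Cacna1c and Abcc8 were higher. It overlapped a weak H3K4me3 region inside the gene (4.06 and 3.30), 16.9 kb from the annotated start. Inside the gene a further pair, at 143085940 to 143086454 (4.26 and 5.18) and 143087058 to 143087462 (5.52 and 4.55), lay 8.29 and 7.32 kb from that start. The remaining pair lay outside the gene, at 143103994 to 143104984 (5.18 and 5.81), nearest to Kcnq1, and at 143068507 to 143069663 (4.32 and 3.99), over the H3K4me3 region at Tssc4 (16.7 and 12.9). In H3K4me3 replicate 2 that region joined separate peaks, and both MafA summits lay in the weaker one, with 4.54.

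Trpm4 (45303155 to 45334071) carried 1 MafA region, at 45332981 to 45333740, with 2.19 and 2.87 (2.53 ± 0.477, n = 2), which was in the lowest 1.38% of MafA regions. It held 32 and 64 fragments, about the median of these regions, over a background of 14.0 and 16.0. H3K4me3 covered that end of the gene at 14.3 and 14.2. In MafA replicate 2 a further 2 peaks were listed, with 3.88 and 3.76, and neither was in replicate 1. The MafA region of Trpm4 was lost at a −log10 q of at least 5.

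**Figure D3:**
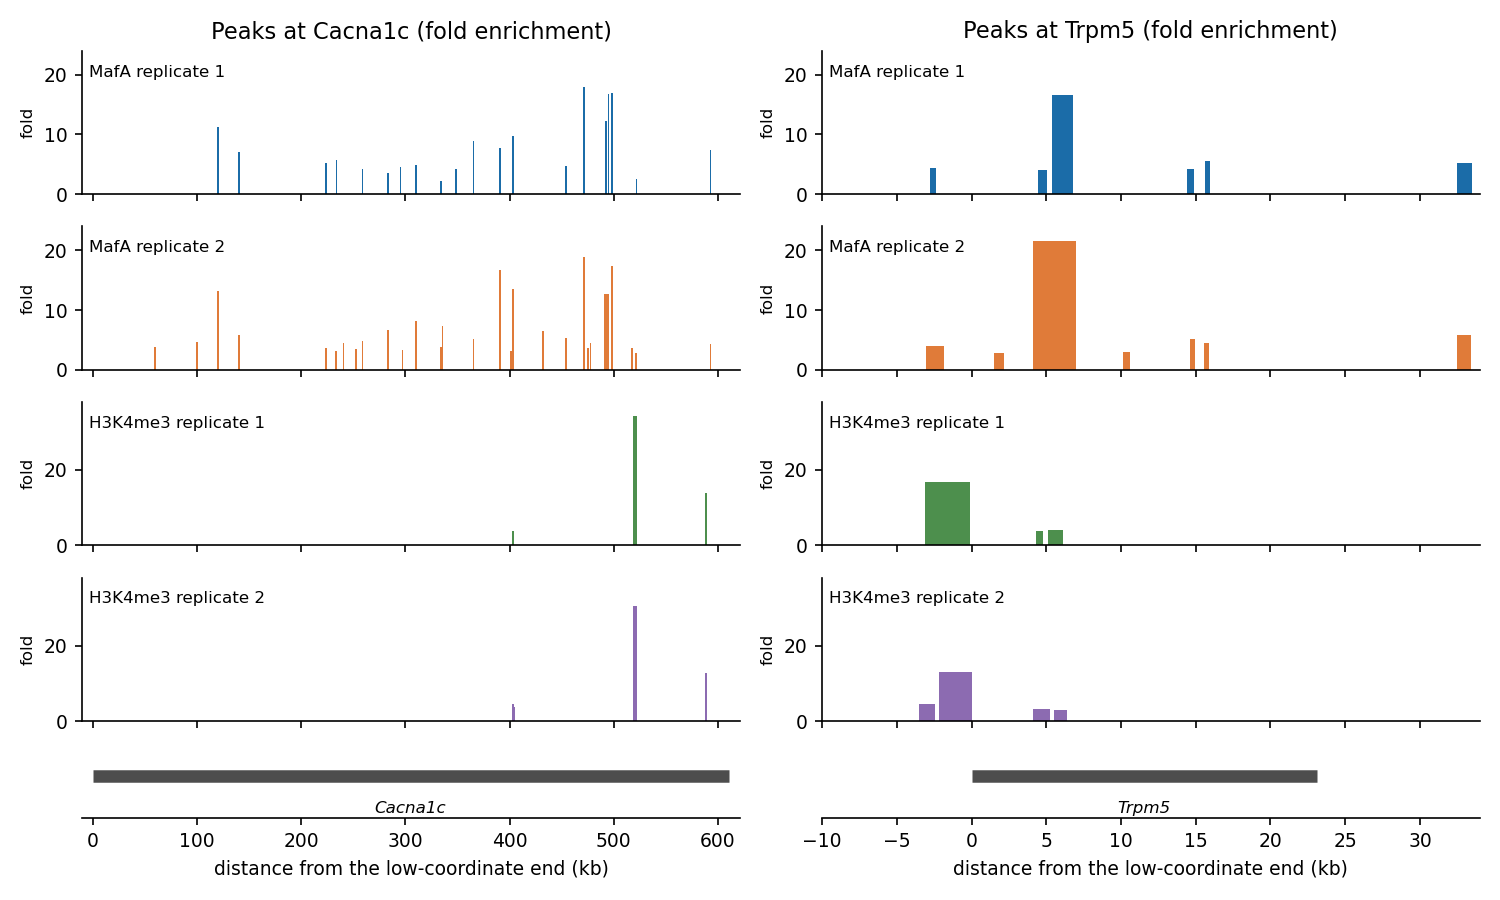
Peaks of each library at Cacna1c (left) and Trpm5 (right): horizontal axis, distance from the low-coordinate end of the gene in kb; bar height, fold enrichment; bar width, peak width, with a minimum width for narrow peaks. Of the 5 Cacna1c regions at or above the 90th percentile, 3 stand within 50 kb of the marked start, where the tallest H3K4me3 bar is. None of the 5 stands on that bar. In Trpm5 the tallest MafA bar (16.7 and 21.6) stands on the low H3K4me3 bars inside the gene.

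By their strongest region the genes ranked Trpm5 (19.1), Cacna1c (18.4), Abcc8 (17.1), Cacna1d (15.1), Cacna1a (10.2), Cacna2d1 (9.08), Cacnb2 (8.93), Kcnj11 (5.50) and Trpm4 (2.53), as mean fold enrichment of 2 replicates. The replicate ranges of each neighbouring pair overlapped from Trpm5 to Cacna1d and from Cacna1a to Cacnb2, so the order of these neighbours was not resolved, while both values of Cacna1c lay above both of Cacna1d. The ranges of Cacna1d and Cacna1a did not overlap, nor did those of Cacnb2 and Kcnj11 or of Kcnj11 and Trpm4. The number of regions differs between the genes and bears on this order. By number relative to length the order was another: Abcc8 (17.8 per 100 kb) and Trpm5 (11.6) led, then Kcnj11 (4.20, from 1 region), while the 5 calcium channel genes ranged from 0.652 to 2.70.

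**Figure D4:**
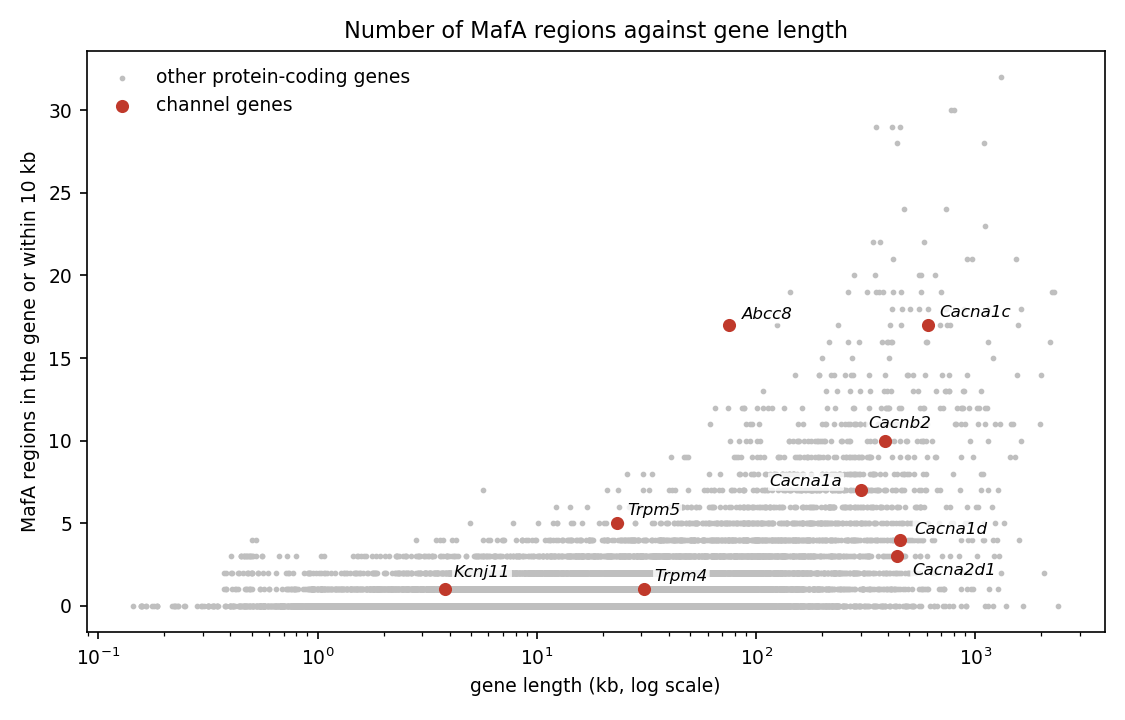
Number of MafA regions in each protein-coding gene or within 10 kb, against gene length in kb (log axis), with the 9 channel genes in red. Abcc8, with 17 regions, stands above all other genes of 20 to 100 kb (at most 12), while Cacna1d and Cacna2d1 lie among long genes with few.

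Most MafA regions at these genes lay away from H3K4me3. An H3K4me3 region was overlapped by 8 of the 64 MafA regions (12.5%, 95% Wilson interval 6.47 to 22.8%), against 23.5% of all MafA regions. Regions of 1 gene are not independent, and the interval covers counting error only. The 23.5% takes in MafA regions at genes of all lengths and between genes, whereas 5 of the 9 genes are over 300 kb. It was not matched for gene length or distance from a start, so the lower share is not shown to be particular to these genes. The median fold enrichment was 5.12 for the 8 and 6.32 for the other 56. Median fragments were higher for the 8, at 44.5 and 102 in replicates 1 and 2, than for the 56, at 27.5 and 60. The background by which they are divided was also higher, at 9.15 and 13.5 for the 8 and 3.51 and 6.00 for the 56, and its part in the lower fold enrichment was not tested.

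Per library, 3.75% and 7.14% of the MafA peaks at these genes had a summit within 1 kb of a start, in replicates 1 and 2. The shares were 31.6% and 33.3% for H3K4me3. The difference of -27.0 percentage points (5.45 ± 2.40% against 32.5 ± 1.24%, mean ± SD, n = 2 each) exceeded the spread between replicates. Its direction was known beforehand, since H3K4me3 marks gene starts, and no shares of the whole lists are given beside it. An exact permutation test of the 4 libraries gave p = 0.333 (two-sided), the smallest that 2 against 2 allow. Of the 18 H3K4me3 regions at these genes, 10 lay away from the starts used, several of them at neighbouring or overlapping genes.

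Replicates resembled each other at most regions. At these genes 85% of the 80 peaks of MafA replicate 1 and 65.3% of the 98 of replicate 2 were in regions found in both, against 81.2% and 60.8% of the whole lists. Summits were within 100 bp of each other at 39 of 64 regions, and over 1 kb apart at 1, in Cacna1c. Fold enrichment differed by more than 1.5 times at 11 regions and by 2.14 times at most, and it was higher in replicate 2 at 40 and in replicate 1 at 24. The 12 peaks of replicate 1 and 34 of replicate 2 that had no partner were weaker, with medians of 4.22 and 3.90. Of the 34, 11 were in Cacna1c, the highest with a fold enrichment of 7.25 and 59 fragments.

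Related channel genes were taken from a list of 21. A MafA region was found at 12 of them, against 44.0% of protein-coding genes, and an H3K4me3 region at a start of 7, against 57.0%. Gene length matters here too, with a MafA region at 53.1% of genes of 20 to 100 kb and 88.7% of those of at least 300 kb. Kcnj8 and Abcc9, which encode the KATP pair of muscle and vessels, had no MafA region and no marked start. Of 13 other calcium channel subunit genes 9 had a MafA region, and Cacna1f, Cacnb1, Cacnb3 and Cacna2d2 had none. Of 6 other TRPM genes, Trpm3, Trpm7 and Trpm8 had one, and Trpm1, Trpm2 and Trpm6 had none. The highest values were at Trpm3 with 20.6 ± 1.26, Cacnb4 with 16.9 ± 0.626 and Cacna1g with 13.1 ± 3.42 (mean ± SD, n = 2), the last outside its gene. Trpm3, of 858 kb, carried 12 regions without a marked start.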

How the data were processed

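Peaks were called by the authors with MACS2 on GRCm38/mm10, per the submitters' processing notes, 1 list for each library, from 150 bp read pairs. The aligner, duplicate handling, control library and MACS2 version are not given in the sources used here. The authors' fold enrichment per peak is a ratio, (pileup + 1) over (background + 1) at the summit, as its values show. The deposited −log10 p and −log10 q were used for fragment recovery and for a stricter threshold, and the deposited score, 10 times the −log10 q, was not used.

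Overlap was at least 1 bp. Whole fragments were recovered where a scaled whole number gave the deposited −log10 p within a relative tolerance of 0.0001 (99.9% to 100% of peaks per list). Gene positions, starts and sequences came from RefSeq (GRCm38.p6). Of the 9 genes, 5 were in the promoter table. The gene table holds no exons, so regions are given only as inside or outside a gene. Analyses ran in Python (3.11.15) with scipy (1.17.1), pandas (2.3.3), numpy (2.4.6) and matplotlib (3.10.9), and the routines were tested on simulated data.

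The genes and lists were chosen with earlier results of these data known. All 9 are named, with the strongest MafA region of each and any at a marked start. Of the related genes, those with the 3 highest values and those in groups of 5 or fewer are named. The text also names further regions, chosen after their values were seen. The 16020 strongest peaks of each list, peaks with a −log10 q of 5 or more, 50% reciprocal overlap, other windows and leaving out each library were tried as alternatives. Motifs at MafA summits were planned and not run, since no genome sequence was used here.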

Additional observations from a re-analysis of the deposited data

How the results depend on the processing

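With the 16020 strongest peaks of each list the MafA regions fell to 30 from 64, as fewer peaks entered, and the share over H3K4me3 to 3.33% from 12.5%. Leaving out a MafA replicate gave 80 to 98 regions, since peaks of a single list then count, and 11.25% to 15.3% over H3K4me3. No share over all MafA regions is given under these settings, so these shifts are not shown to be particular to the 9 genes. Over the other alternatives the number of genes with a MafA region stayed at 7 to 9, and the H3K4me3 count at 7 to 8. The 7 came from using either end of every gene, chosen after seeing the data, as were the alternatives for the rank of Abcc8. Kcnj11 lost its MafA region among the strongest peaks, with 50% reciprocal overlap and in the gene body alone. Trpm4 lost its own among the strongest peaks, with 50% overlap and at a −log10 q of at least 5. Numbers of regions per gene moved by over 1.5 times in 21 of 72 cases. Abcc8 had 9 among the strongest peaks and Cacna1c 7, while MafA replicate 2 alone gave Cacna1c 28, Cacnb2 16 and Cacna2d1 10. Ranked by fragments (each replicate's relative to the median of the gene's regions, then summed), another region led at Abcc8 (fold enrichment 16.6), Cacna1a (5.65), Cacnb2 (4.25) and Cacna2d1 (8.06).

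The difference in peaks near a start ranged from -33.6 to -13.1 percentage points, the latter within 500 bp. With the replicate number as a block it was -27.0, with an exact permutation p of 0.5, the smallest that design can give, although no label ties equal numbers to a shared culture. Neither design can reach a conventional threshold, so these p-values say nothing about stability. Alternatives for motifs at MafA summits were not run. With medians of 31 and 62.5 fragments at these regions, peaks found in 1 replicate only are uncertain.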
